A study of Mus musculus with 59 samples.

Results

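The regions described here carried H3K27me3 islands in all 3 forebrain neurosphere cultures and in none of the 3 hindbrain cultures of mice whose histone gene H3f3a encodes the K27M protein. An island is a run of windows in which the authors' caller found more reads than background. Islands of the 6 lists were merged wherever they shared 1 bp on the 19 autosomes, which gave 9269 regions, and 299 of these (3.23%) were forebrain-only. The opposite set, with an island in all 3 hindbrain and no forebrain list, held 739 regions (7.97%), and 2584 regions were shared by all 6 lists. The calls in these 6 lists chose the 299 regions, so the forebrain and hindbrain calls, widths and forebrain read counts below describe the choice and carry no test.

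Forebrain K27M and hindbrain K27M neurospheres had the genotype Nestin-cre; H3f3aLSL-K27M-Tag/+ and were derived from e15.5 embryos, with 3 cultures each, all female. Hindbrain WT neurospheres carried H3f3aLSL-WT-Tag/+ in its place, with 3 cultures, of which those of experiments 1 and 2 were female and that of experiment 3 was male. Each culture bears an experiment number that is shared between groups. K27M brainstem tumours (6; 4 male and 2 female) combined Nestin-creERT2, H3f3aLSL-K27M-Tag/+, the Cre-activated LSL-PDGFRαV544ins receptor and Trp53flox/flox, whereas WT tumours (5; 1 male and 4 female) carried the WT-Tag allele on the same background. In every group the tagged histone is expressed where a Nestin-driven Cre has acted, 1 H3f3a allele is not the tagged one, and all tumours also lack Trp53 in those cells and carry the activated receptor. H3K27me3 was profiled in all of these, H3K27ac in the 11 tumours, and H3K4me3 in K27M tumours 2 and 6 and WT tumours 7, 9 and 10. H3K27me3 of WT forebrain cultures was not analysed here, so whether forebrain and hindbrain differ at these regions also without K27M was not tested.

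H3K27me3 is laid down by Polycomb repressive complex 2 over genes that are kept silent, and in the developing brain it covers many regulators of regional identity. The K27M histone interferes with that complex, so that much of the mark is lost while some islands persist. H3K27ac cannot sit on the same histone tail residue as H3K27me3 and is found at active enhancers and promoters, whereas H3K4me3 is a promoter mark.

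The autosomal lists held 4860 to 5302 islands in forebrain K27M cultures, 6020 to 7614 in hindbrain K27M cultures and 16008 to 19476 in hindbrain WT cultures, covering 39.8 to 42.5 Mb, 37.3 to 45.6 Mb and 145 to 191 Mb. Reads inside autosomal islands numbered 3775395 to 4671583 in forebrain K27M, 4376553 to 5321143 in hindbrain K27M and 6199003 to 9072944 in hindbrain WT lists. The K27M tumour lists held 10716 to 42642 autosomal islands and the WT tumour lists 16858 to 33190. A list with more or longer islands calls more of any set of regions, so counts in the other lists are set beside the same counts over all 9269 regions. The lists name no genes, and the annotation of the mouse genome used here is of another build, so regions are named by their mm9 position, what lies there is not stated, and the forebrain and hindbrain labels were not checked against marker genes.

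The forebrain-only regions were of moderate width. Their median was 7.4 kb, with a range of 2.6 to 43.8 kb, against 5.4 kb for hindbrain-only regions, 11 kb for regions in all 6 lists and 5.0 kb over all 9269. Together they spanned 2.78 Mb, of which forebrain islands covered 76.1%, 85.1% and 74.9% in experiments 1, 2 and 3. Over the 299 regions the mean of the 3 forebrain lists had a median of 19.6 reads per kb of region, with a range of 7.47 to 351. The 3 forebrain lists ranked the regions alike, with Spearman correlations across regions of 0.71 (experiments 1 and 2), 0.64 (1 and 3) and 0.58 (2 and 3). This is a description over 299 regions, each of which has the same width and base composition in the 3 lists. The highest of the 3 values was 1.51 times the lowest in the median region, and under 2 times in 239 regions. All 299 regions together held 2.08%, 2.28% and 2.14% of the autosomal island reads of the forebrain lists.

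**Figure D1:**
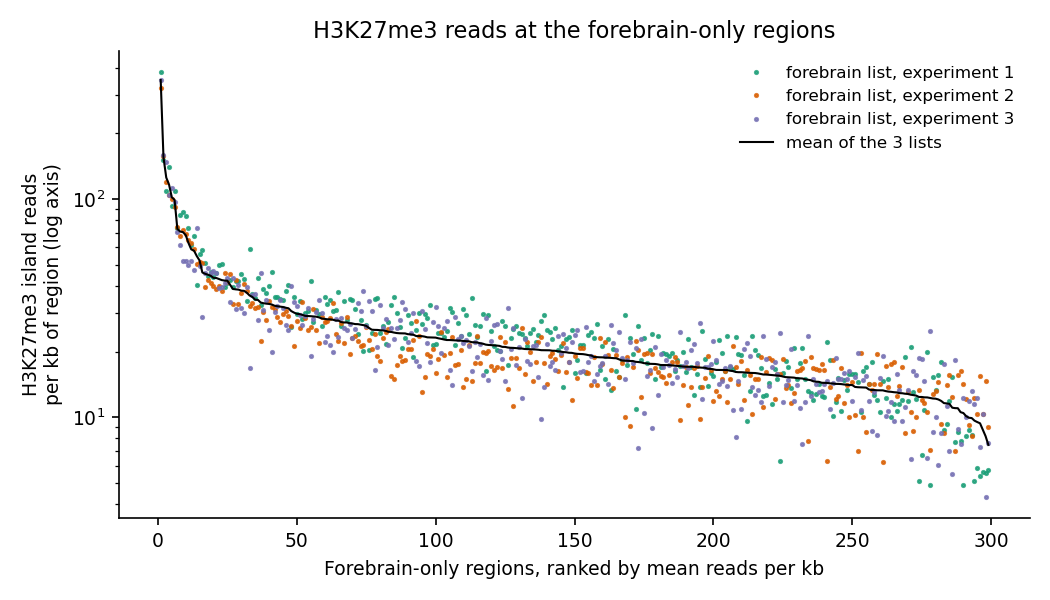
H3K27me3 island reads per kb of region (log axis) at the 299 forebrain-only regions, ranked by the mean of the 3 forebrain lists. Points are the forebrain lists of experiments 1 to 3 and the line is their mean: a few regions stand above 40 reads per kb and most lie near the median of 19.6.

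The reads were concentrated in few of the regions. The single densest region held 13.6% of all forebrain reads over the 299 (37450 of 274560), the 10 with most reads held 37.7%, and the 20 with most reads held 48.7%. Only 26 regions (8.70%) reached 40 reads per kb. These 26 had a median width of 18.3 kb, against 7.2 kb for the other 273.

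The densest region lay on chromosome 8, 94868201 to 94903800, and spanned 35.6 kb. It held 13586, 11433 and 12431 island reads in the forebrain lists of experiments 1, 2 and 3, which is 351 ± 30.3 reads per kb (SD, n = 3). No hindbrain K27M island lay within 78 kb. Among hindbrain WT lists only that of experiment 3 had an island there, of 252 reads over 11 kb. All 11 tumours had an H3K27me3 island in this region, with 40.1, 55.2 and 103 reads per kb of island (lowest, median and highest) in K27M tumours and 25.9, 28.4 and 46.7 in WT tumours. The 2 ranges overlapped, and this region was also called for H3K27ac in all 11 tumours and for H3K4me3 in all 5 tumours profiled. A second wide region on the same chromosome, at 94579201 to 94612800, held 52.3 ± 3.48 forebrain reads per kb (SD, n = 3). It had H3K27me3 islands in all 3 hindbrain WT lists and all 11 tumours but neither H3K27ac nor H3K4me3 peaks in any tumour.

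The third densest region, on chromosome 2 at 63902201 to 63944000, was 41.8 kb wide. Its forebrain reads numbered 4523, 4989 and 6205 in experiments 1, 2 and 3. The nearest hindbrain K27M island was 877 kb away, and no hindbrain WT list had an island. Small H3K27me3 islands, over 4.31% to 11% of its width, were present in 5 of 6 K27M and 2 of 5 WT tumours, while H3K27ac and H3K4me3 peaks were present in every tumour profiled. Its neighbour at 63797201 to 63831000, with 1358, 1700 and 2493 forebrain reads, likewise had no hindbrain WT island. It had an H3K27me3 island in 1 K27M and 2 WT tumours and an H3K27ac peak in 5 K27M and 1 WT tumours.

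A region on chromosome 14, 49353001 to 49376600, showed another combination. It held 2200, 2351 and 2659 forebrain reads in experiments 1, 2 and 3 and had no island in any hindbrain list, K27M or WT. All 11 tumours had an H3K27me3 island there, none had an H3K27ac peak, and 1 WT tumour had an H3K4me3 peak. It opened a run of 3 forebrain-only regions within 165 kb. Runs of this kind, with gaps of at most 100 kb, took in 101 of the 299 regions in 45 runs, 11 of which had 3 members, and the other 198 regions stood alone.

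The remaining regions among the 8 densest differed in the other lists. On chromosome 7, 144390601 to 144407000 held 155 ± 3.94 forebrain reads per kb and 144425801 to 144436400 held 72.9 ± 2.02 (SD, n = 3 each). Both were called in all 3 hindbrain WT lists, in 9 and 10 tumours, and in no H3K27ac or H3K4me3 list. On chromosome 9, 69506201 to 69528600 held 116 ± 20.6 reads per kb, with islands in 2 hindbrain WT lists and all 11 tumours and no H3K27ac peak. On chromosome 8, 111765601 to 111780800 held 99.1 ± 8.90 reads per kb, with no hindbrain WT island, an H3K27me3 island in 3 tumours and an H3K27ac peak in all 11. On chromosome 10, 115009201 to 115035800 held 70.9 ± 11.9 reads per kb, with islands in all 3 hindbrain WT lists and all 11 tumours and H3K27ac in 10. The widest region of all, 43.8 kb on chromosome 2 at 34072801 to 34116600, held 26.4 ± 9.78 reads per kb. It was called for H3K27me3 in 1 K27M and 3 WT tumours and for H3K27ac in 6 K27M and 4 WT tumours.

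At the low end, regions just inside the rule held few reads. The 3 with fewest forebrain reads had 136, 152 and 156 over the 3 lists, on chromosomes 10, 6 and 1 at widths of 3, 2.6 and 2.6 kb. Just outside stood 147 regions with all 3 forebrain and 1 hindbrain list, of which the 3 nearest the rule held 25, 26 and 30 hindbrain reads, all in experiment 1. A further 258 regions had 2 forebrain and no hindbrain list, and the 3 of these with most reads held 1136, 818 and 514, none in experiment 3. The 258 had a median of 16.3 reads per kb in the lists with an island.

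Calls in lists that the choice did not use could be read by choosing regions from 2 experiments and scoring the experiment left out. With experiments 1, 2 and 3 left out, 491, 434 and 496 regions were forebrain-only, of which 77.6%, 81.1% and 77.8% had an island in the forebrain list left out. Over all regions merged from the same 4 lists these shares were 52.7%, 46.9% and 50.5%. In the hindbrain list left out, 19.1%, 6.22% and 16.7% of the forebrain-only regions had an island, against 70.2%, 53.2% and 62.3% of all regions. Regions chosen as hindbrain-only gave 16.8%, 7.58% and 14.0% in the forebrain list left out and 92.6%, 64.9% and 75.7% in the hindbrain list. Each share rests on 1 list, so no test was run, and the order was the same in all 3 experiments. Regions with an island in all 4 lists were not scored apart, and all regions include those with an island in 1 list only. A set chosen for islands in both forebrain lists is thus not like all regions in how often its islands recur.

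**Figure D2:**
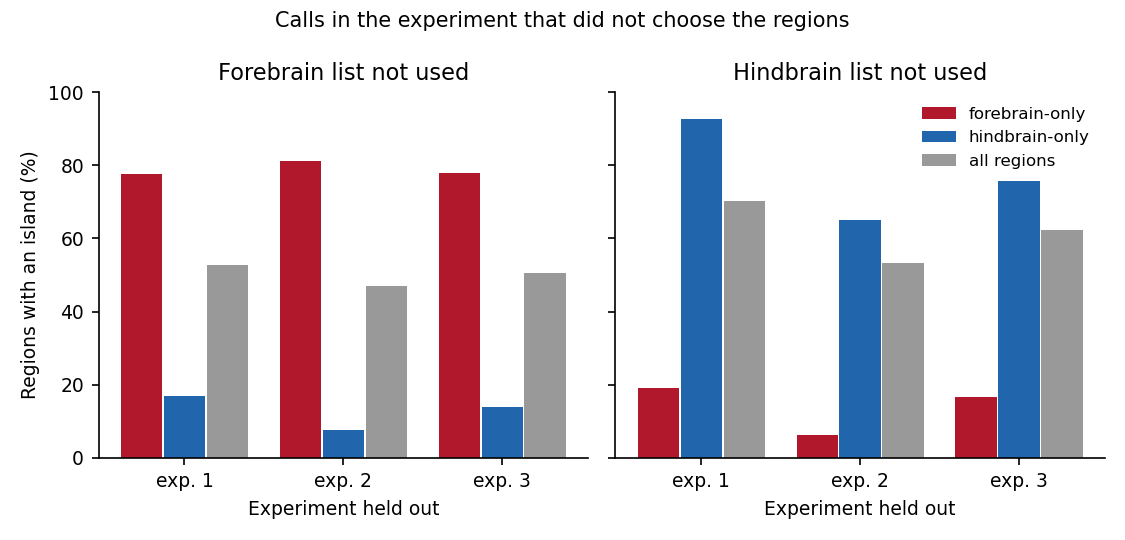
Percent of regions with an island in the forebrain list (left) and hindbrain list (right) of the experiment that was left out, for forebrain-only, hindbrain-only and all regions chosen on the other 2 experiments. Forebrain-only regions stand highest at left, at 77.6% to 81.1%, and lowest at right, at 6.22% to 19.1%.

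Hindbrain WT cultures had H3K27me3 islands at most of the forebrain-only regions, though at a smaller share of them than of all regions. The rule keeps hindbrain K27M islands out of the forebrain-only regions, whereas most of all regions and every hindbrain-only region hold one. Among regions over 100 kb from such an island, 34.9% of forebrain-only and 39.9% of all regions were in all 3 hindbrain WT lists. In none of these lists were 31% and 28.8%. Of the 299, 140 (46.8%) had an island in all 3 hindbrain WT lists, against 75.4% of hindbrain-only regions and 76.1% of all 9269. Another 60 regions (20.1%) had none, against 4.33% and 7.45%. Islands in 1 list numbered 39 (13%, against 6.4% of all regions) and in 2 lists 60 (20.1%, against 10% of all regions), so 239 (79.9%) had at least 1, against 92.5% of all. The lower share in all 3 lists held within each width class. It was 35.2% of the forebrain-only regions against 63.1% of all regions up to 5 kb, 53.1% against 86.5% at 5 to 10 kb, and 45.7% against 95.2% over 10 kb.

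The hindbrain WT lists differed among themselves at these regions. The lists of experiments 1, 2 and 3 called 54.2%, 64.2% and 75.3% of the forebrain-only regions, against 83.0%, 83.9% and 88.0% of all regions. Experiment 3 was highest in both, and sex and experiment cannot be told apart there, since its culture was the male. The hindbrain WT lists covered more of the genome than the K27M lists, so the WT lists were also cut to the number of islands in the shortest K27M list. Then 11.4% of the same 299 regions were in all 3 hindbrain WT lists, against 42.6% of all regions. When the K27M lists were cut as well, which changes the regions chosen, 19.1% of 409 forebrain-only regions were in all 3, against 50.8% of all. The share of forebrain-only regions was below that of all regions under both settings.

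**Figure D3:**
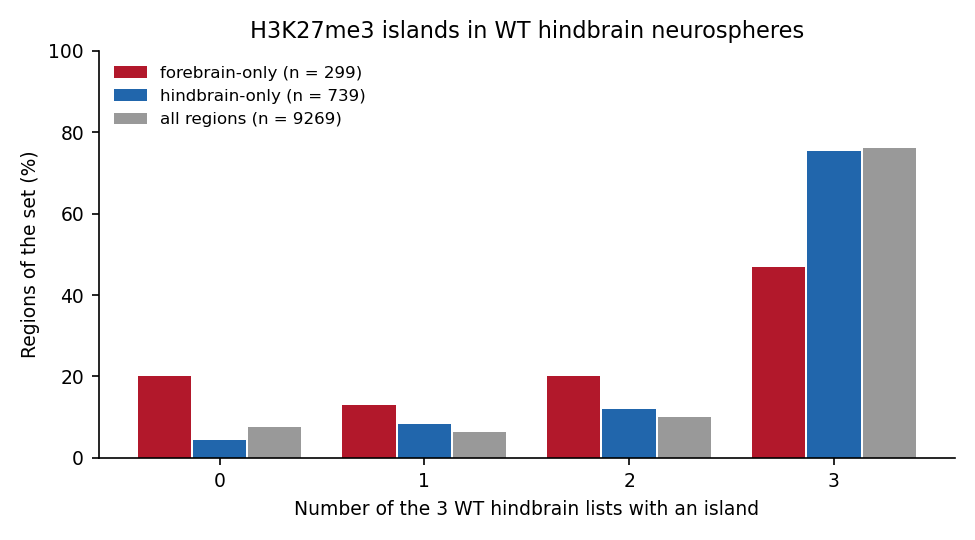
Percent of forebrain-only, hindbrain-only and all regions with an island in 0, 1, 2 or 3 hindbrain WT lists. The forebrain-only regions reach 46.8% at 3 lists, against 75.4% and 76.1%, and 20.1% at 0 lists, against 4.33% and 7.45%. Most of all regions and every hindbrain-only region hold a hindbrain K27M island, which the forebrain-only rule excludes.

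Hindbrain WT islands at these regions were somewhat less dense than elsewhere. Over the 239 forebrain-only regions with one, the median was 28.9 WT reads per kb of island, against 31.4 at hindbrain-only regions and 34.2 at all regions with one. Some of the regions lay inside broad WT islands. The region with most WT reads, chromosome 9 at 60319001 to 60327800, is 8.8 kb wide and lies inside WT islands of 122, 108 and 126 kb, and its nearest hindbrain K27M island was 4 kb away. Its forebrain lists held 138, 106 and 180 reads. The next, chromosome 7 at 103648001 to 103654200, lies inside WT islands of 136 and 142 kb in experiments 1 and 2 and of 18.6 kb in experiment 3. The other 3 with most WT reads lay on chromosomes 7 (69516001 to 69523000), 6 (101241201 to 101257800) and 4 (45486601 to 45516600). They held 342, 854 and 1634 forebrain reads over 3 lists, all inside the region. The WT islands over them held 11260, 7996 and 6127 reads over 3 lists, counted over whole islands that reach beyond the region. Per list these WT islands spanned 32.8 to 66.2 kb, 48.6 to 80.2 kb and 29.4 to 80 kb. The regions themselves are 7, 16.6 and 30 kb wide, so the 2 counts cover unlike lengths. Over all 299, the median distance to the nearest hindbrain K27M island was 76.4 kb, 41 lay within 5 kb, and 129 lay over 100 kb away (87.4% and 5.17% of all regions, most of which hold a hindbrain K27M island by the way they were merged). Of those 129, 45 were in all 3 hindbrain WT lists (34.9%, against 39.9% of all regions as far away) and 40 in none (31%, against 28.8%).

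H3K27me3 was found in brainstem tumours at most of these regions, at overlapping shares in K27M and WT tumours. At least 1 of the 11 tumours had an island at 235 regions (78.6%), against 86.6% of all regions. All 11 had one at 51 (17.1%, against 27.1%), and none at 64 (21.4%, against 13.4%). The share called per tumour was 31.1%, 46.5% and 55.5% (lowest, median and highest) in K27M tumours and 33.4%, 55.2% and 69.9% in WT tumours. The ranges of the groups overlapped, and the means were 45.5% ± 9.52 in K27M tumours (SD, n = 6) and 51.0% ± 14.1 in WT tumours (SD, n = 5). In K27M and WT tumours the means were 43.1% ± 12.4 and 41.4% ± 13.9 over hindbrain-only regions, and 56.6% ± 10.5 and 58.4% ± 12.8 over all regions. At the forebrain-only regions the difference of -5.48 percentage points was smaller than the spread between tumours. It was 0.123 when every tumour list had the same number of islands. K27M and WT tumours differ in sex ratio: among females the forebrain-only share was 35.8% ± 6.62 in K27M tumours (n = 2) and 49.9% ± 16.1 in WT tumours (n = 4).

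Tumour islands were most frequent at the regions with hindbrain WT islands in all 3 lists and least frequent at those with none. An island in at least 1 tumour was found at 132 of the 140 regions in all 3 hindbrain WT lists (94.3%), at 45 of 60 in 2 lists (75%), at 31 of 39 in 1 list (79.5%) and at 27 of 60 in none (45%). The same shares over all regions were 92.4%, 79.3%, 67.1% and 53.8%. A total of 33 forebrain-only regions (11%, against 3.44% of all) had no island in any hindbrain WT list or tumour. Of these, the 4 with most forebrain reads lay on chromosome 1 (69065401 to 69083200; 68910801 to 68926000; 97110601 to 97122000) and chromosome 10 (8106001 to 8116800), with 1257, 1146, 930 and 1037 reads over the 3 forebrain lists. The first of them carried H3K27ac in 5 K27M and 1 WT tumours, and the pair at 97110601 and 8106001 carried neither H3K27ac nor H3K4me3 in any tumour.

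H3K27ac peaks were present at a larger share of the forebrain-only regions than of all regions when regions of up to 5 kb were compared, and at a smaller share among wider ones. At least 1 tumour had a peak at 134 regions (44.8%, against 41.0% of hindbrain-only and 37.2% of all regions) and all 11 at 35 (11.7%, against 9.61% and 7.27%). Up to 5 kb the share with a peak in at least 1 tumour was 56.3%, against 38.9% of hindbrain-only and 26.2% of all regions. At 5 to 10 kb it was 38.8%, against 41.9% and 43.2%, and over 10 kb it was 45.7%, against 45.0% and 57.0%. The per tumour share was 21.7%, 24.1% and 28.8% (lowest, median and highest) in K27M tumours and 21.1%, 24.7% and 28.4% in WT tumours. The groups overlapped throughout, with means of 24.6% ± 2.76 in K27M tumours (SD, n = 6) and 24.4% ± 2.77 in WT tumours (SD, n = 5). In K27M and WT tumours the means were 22.9% ± 3.59 and 22.5% ± 3.53 over hindbrain-only regions, and 19.1% ± 2.96 and 20.2% ± 3.8 over all regions.

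**Figure D4:**
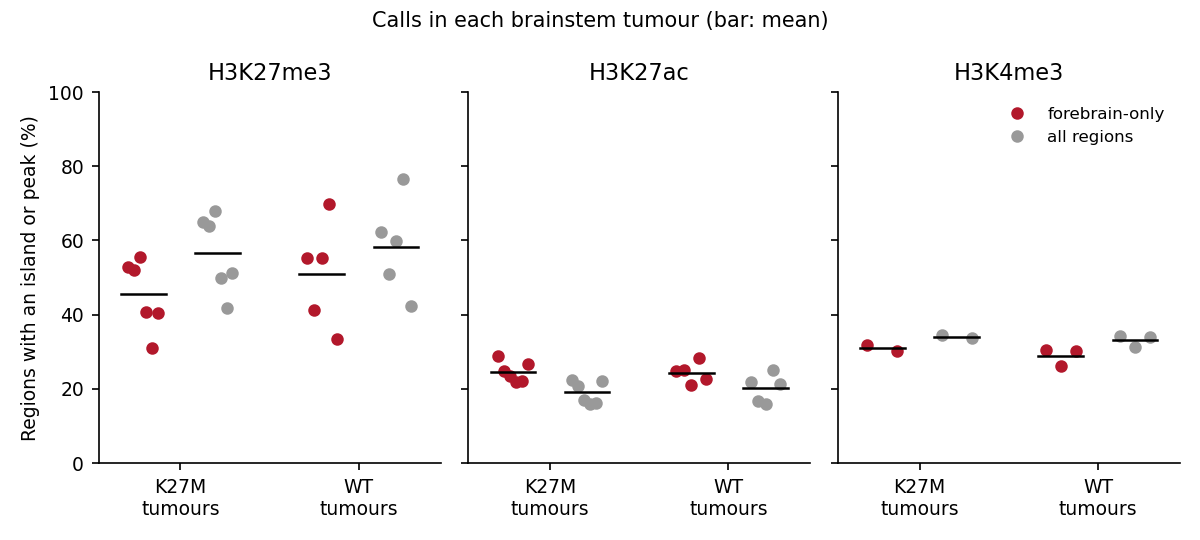
Percent of forebrain-only regions and of all regions with an H3K27me3 island, an H3K27ac peak or an H3K4me3 peak in each tumour, K27M tumours left of WT tumours. Each point is 1 tumour and the bar is the mean: K27M and WT tumours overlap for every mark.

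Taken over all widths, regions with H3K27ac and without H3K27me3 in the same tumour were more frequent among the forebrain-only regions than among all regions, as they also were among hindbrain-only regions. They made up 12.2% ± 1.21 of forebrain-only regions in K27M tumours (n = 6) and 13.6% ± 3.74 in WT tumours (n = 5), against 5.82% ± 1.54 and 7.61% ± 2.06 of all regions (SD). Hindbrain-only regions stood between, at 8.71% ± 2.41 and 12.1% ± 2.80. In each of the 11 tumours the forebrain-only share was above that of all regions, but in WT tumour 10 it was 9.03%, below the 9.88% of hindbrain-only regions. These shares were not split by width. The share with H3K27ac in at least 1 tumour was above that of all regions only up to 5 kb. Across tumours, 8 forebrain-only regions (2.68%, against 1.08% of hindbrain-only and 0.496% of all regions) had an H3K27ac peak in all 11 and H3K27me3 in none. The one with most forebrain reads, chromosome 3 at 159495001 to 159528200, held 2454, 2161 and 1648 reads in forebrain lists, had islands in 2 hindbrain WT lists and carried H3K4me3 in all 5 tumours. A region on chromosome 11, 18899601 to 18924200, held 2061, 1704 and 1282 forebrain reads and had no hindbrain WT island. It carried H3K27ac in all 11 tumours and H3K27me3 in 6 of 6 K27M and 1 of 5 WT tumours. Both marks in all 11 tumours were found at 6 regions (2.01%, against 1.74% of all), the densest region on chromosome 8 among them.

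H3K4me3 peaks, which mark promoters, were found in at least 1 of 5 tumours at 112 regions. This was 37.5%, against 32.2% of hindbrain-only and 38.5% of all regions, but the comparison with all regions changed with width. Up to 5 kb the share was 35.2%, against 36.3% of hindbrain-only and 25.3% of all regions. At 5 to 10 kb it was 32.7%, against 28.7% and 46.6%, and over 10 kb it was 48.1%, against 28.8% and 61.0%. All 5 tumours had a peak at 69 (23.1%, against 23.1% and 28.6%). Per tumour the share was 31.8% and 30.1% in K27M tumours 2 and 6, and 30.4%, 26.1% and 30.1% in WT tumours 7, 9 and 10. The groups overlapped, and 2 against 3 tumours cannot give an exact p under 0.1. Of the 69 regions with H3K4me3 in all 5 tumours, 63 had H3K27ac in at least 1 tumour (91.3%) and 63 had H3K27me3 (91.3%). Among hindbrain-only regions with H3K4me3 in all 5 these shares were 88.9% and 95.9%, and among all such regions 79.5% and 98.2%. No H3K4me3 peak was found at 187 regions (62.5%, against 67.8% of hindbrain-only and 61.5% of all regions). Of these 187, 47 had H3K27ac in at least 1 tumour (25.1%) and 135 had H3K27me3 (72.2%). Without H3K4me3 the same shares were 23.4% and 68.1% of hindbrain-only regions, and 16.6% and 80.2% of all regions. The 26 regions of at least 40 forebrain reads per kb had H3K4me3 in all 5 tumours in 14 cases (53.8%), against 55 of the other 273 (20.1%). Over all regions with an island in the 3 forebrain lists these shares were 72.4% and 43.7%. No mark was called in any tumour at 36 regions (12%, against 16.8% of hindbrain-only and 9.76% of all regions).

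Tests between K27M and WT tumours called few of these regions. Fisher's exact test on H3K27me3 calls could reach an unadjusted p under 0.05 at 67 of the 299 regions and at 1879 of all regions. None passed after Benjamini-Hochberg adjustment (0% of all regions called, smallest adjusted p 0.239). The smallest p that Fisher's test can give with 6 against 5 tumours is 0.00216, at complete separation. Adjusted over 1879 regions, it passes only if many regions are so separated, and 11 and 4 of all regions were. The test could therefore hardly call any region, and calling none does not show that the groups are alike. At an unadjusted p under 0.05, 2 of the 67 were called more often in K27M tumours (3.35% of all testable regions) and 8 more often in WT tumours (2.98% of all). H3K27ac calls gave 0 of 30 testable regions after adjustment (0% of all, smallest adjusted p 0.297), and at an unadjusted p under 0.05 there were 0 higher and 1 lower in K27M tumours (1.94% of all in each direction). Of all regions, 3 each way were completely separated for H3K27ac, so calling none shows as little for this mark. Complete separation of H3K27me3 calls was seen in 1 region each way. Chromosome 6, 63201401 to 63206400, had an island in all 6 K27M and no WT tumour (0.119% of all regions), and chromosome 7, 144418401 to 144425200, in no K27M and all 5 WT tumours (0.0432% of all). The chromosome 7 position lies between the 2 dense chromosome 7 regions above.

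Read counts could be tested where all 11 tumours had an island. Islands of the tumours were merged into 3067 such regions, and 82 of the 299 forebrain-only regions overlapped 73 of them. These tumour regions were wider, with a median of 59.8 kb, and the forebrain-only region took up a median of 17.7% of their width, so the test reads the tumour region and not the forebrain-only region alone. In the quasi-likelihood test of edgeR, adjusted by Benjamini-Hochberg over the 3067, 5 of the 73 were higher in K27M tumours (7.11% of all tumour regions) and 1 was lower (4.66% of all). The median log2 fold change was -0.10 over the 73 and -0.10 over the 3067. In all, 8.22% of the 73 were called, against 11.8% of the 3067. Without composition factors the median of all tumour regions moved to -0.29, and of the forebrain-only regions 3 lay in higher and 4 in lower tumour regions, against 6 and 1 with them. Over all 3067 tumour regions the calls numbered 158 higher and 300 lower without these factors, against 218 and 143 with them.

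The tumour region on chromosome 1, 38889201 to 38899800, had 40.4, 52.1 and 62.7 CPM (lowest, median and highest) in K27M tumours and 13.3, 21.0 and 30.7 CPM in WT tumours. CPM scale the reads of a tumour to a fixed total inside the common regions. The groups did not overlap, and its log2 fold change was 1.23 ± 0.25 (SE), with an adjusted p of 0.00747 by edgeR's quasi-likelihood test. The forebrain-only region makes up 62.3% of it and held 314, 138 and 219 forebrain reads. Its call was lost where regions with an island in at least 8 tumours were tested, at an edgeR adjusted p of 0.303. On chromosome 12, 57525801 to 57679000 had 2757, 3150 and 4095 CPM in K27M tumours and 1202, 1608 and 2616 CPM in WT tumours. These groups did not overlap either, at a log2 fold change of 0.87 ± 0.21 and an adjusted p of 0.0187 by the edgeR test, but the forebrain-only region is 3.79% of this 153 kb region. Inside the forebrain-only region itself, 2 of 6 K27M and 3 of 5 WT tumours had an H3K27me3 island.

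**Figure D5:**
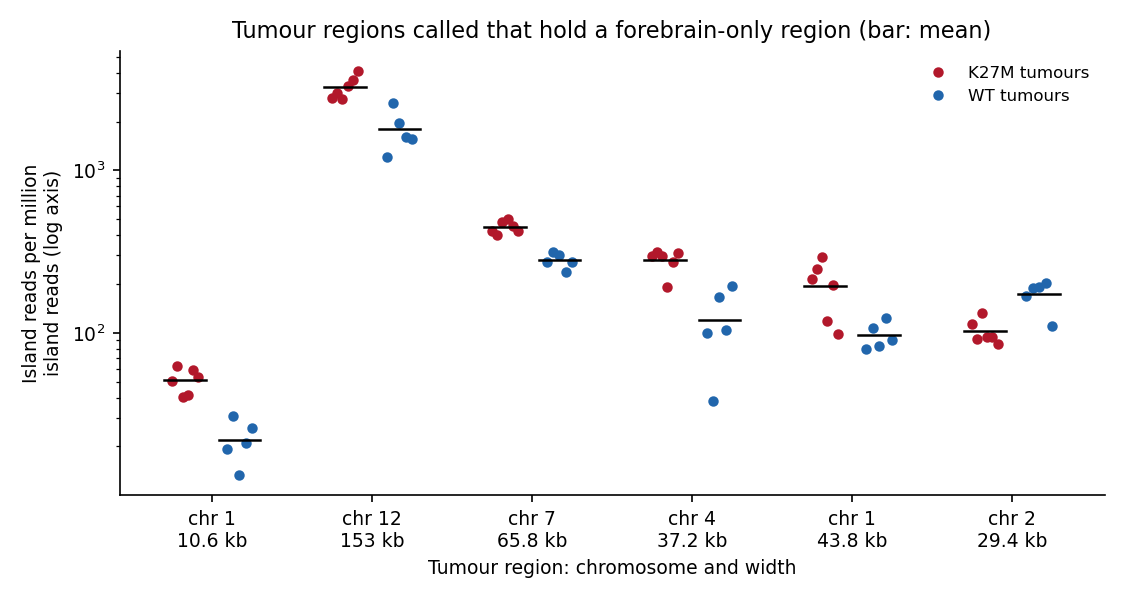
CPM (log axis, with composition factors) in each tumour at the 6 tumour regions that hold a forebrain-only region and passed the edgeR test, K27M tumours left of WT tumours, named by chromosome and width. Bars are means: K27M tumours are higher in the first 5 and lower in the last, and the groups are separate in the first 3.

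On chromosome 7, 51810401 to 51876200 had 402, 440 and 502 CPM in K27M tumours and 238, 273 and 316 CPM in WT tumours, which did not overlap (log2 fold change 0.68 ± 0.18, adjusted p of 0.0263 by edgeR). Its call was lost without K27M tumour 4, K27M tumour 6 or WT tumour 7, at adjusted p values of 0.0516, 0.0515 and 0.0535 by edgeR. It was also lost without composition factors and with sex as a covariate, at edgeR adjusted p values of 0.0842 and 0.0731, and was kept in 10 of 15 alternatives. The last 3 had overlapping groups. On chromosome 4, 140782001 to 140819200 had 191, 297 and 316 CPM in K27M tumours and 37.8, 105 and 194 CPM in WT tumours, at an edgeR adjusted p of 0.0394. On chromosome 1, 74129401 to 74173200 holds 2 forebrain-only regions and had 98.0, 206 and 294 CPM in K27M tumours and 79.0, 91.0 and 123 CPM in WT tumours, at an edgeR adjusted p of 0.0460. The lower one, chromosome 2 at 158195201 to 158224600, had 85.9, 94.3 and 133 CPM in K27M tumours and 110, 190 and 202 CPM in WT tumours (log2 fold change -0.76 ± 0.23, adjusted p of 0.0466 by edgeR). Calls on these 3 were kept in 7, 5 and 4 of 15 alternatives. By edgeR, that on chromosome 4 was lost without K27M tumour 1, 3, 5 or 6 or WT tumour 7 or 10 (adjusted p of 0.0567 to 0.0754). That on chromosome 1 was lost without K27M tumour 1, 3 or 5 or WT tumour 7, 8, 9 or 11 (adjusted p of 0.0640 to 0.0944 by edgeR), and without composition factors at 0.0966. That on chromosome 2 was lost without K27M tumour 1, 2, 4, 5 or 6 or WT tumour 7, 8, 9 or 10 (adjusted p of 0.0766 to 0.117 by edgeR). With sex as a covariate the edgeR calls that stayed were the region at 38889201 on chromosome 1 and that on chromosome 12.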

How the data were processed

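Chromatin immunoprecipitation sequencing was done on tumours and cultured neurospheres with chromatin of Drosophila S2 cells added, per the labels' protocols. No scale factor from it was used here, so values are relative. Per the submitters' processing notes, the build was mm9 and the tools included SICER 1.1, MACS2, bedtools 2.25.0 and BWA 0.7.12. Each of the 36 lists came from 1 sample. The 20 H3K27me3 lists hold the count of reads per island as deposited by the authors (window 200 bp, gap 600 bp, per the file names). The 16 peak lists hold, per peak, a score, a fold enrichment ratio, −log10 p and −log10 q, as deposited by the authors, and only position and −log10 q (2.00 or more) were used. The 23 inputs were not analysed here. Depth outside islands is unknown, so a missing island is not a count of 0. Labels do not say that samples came from separate animals, so p-values reflect only the spread over the samples given, which may be technical.

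A region was called where a list shared 1 bp with it. Reads per kb of region divide all reads of overlapping islands by region width. Tumour reads were tested with edgeR 4.0.16 (TMM factors, threshold 0.05) in R 4.3.3, over regions with an island in all 11 tumours. Calls were tested by two-sided Fisher's exact test. DESeq2 1.42.0 was an alternative. SciPy 1.17.1 and pandas 2.3.3 under Python 3.11.15 served for the rest. The regions, lists and tests were chosen with earlier results of these data known. Named regions are the 8 densest, the 5 widest, 5 with most WT reads, 4 without WT or tumour islands, 4 in all tumours, 4 with most H3K27ac, those called by a test and those nearest the rule's edge. The 2 with separated calls were named after their values were seen.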

Additional observations from a re-analysis of the deposited data

Results flagged for a closer look

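At the tumour region on chromosome 4, 140782001 to 140819200, which holds a forebrain-only region of 7.4 kb, K27M tumour 4 had 191 CPM while the other 5 K27M tumours had 275 to 316. It stands apart by the gap to its nearest neighbour relative to the range of its group. It was the only such case among 24 groups of values examined, and chance flags about 1 in 20. Without composition factors the edgeR adjusted p of this region was 0.0481, and across the 15 alternatives it lay between 0.00211 and 0.109.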

How the results depend on the processing

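Of 107 alternative values, 87 stayed near the main value, and none reversed a call. Near meant within 1.5 times a main count, within the 95% interval of a main share, or within the SD between tumours for a difference. That SD was 11.8 percentage points for H3K27me3 and 2.76 for H3K27ac, so a difference could change sign and still count as near. The 87 include, for each mark, 13 counts of Fisher's test that stayed 0, which the small number of tumours all but ensured. The number of forebrain-only regions was 299, and 186 with islands of at least 20 reads per kb. It ranged from 318 to 496 when 1 list or 1 experiment was left out. Leaving out a list drops a condition of the rule, which by itself raises the number. The share in all 3 hindbrain WT lists was 35.8% with islands over at least 50% of the region (73.0% of all regions). With equal island numbers it was 19.1% (50.8% of all). Without 1 WT list, the share in every list left was 48.2% to 61.9% (77.4% to 81.9% of all regions). It was 61.9% without that of experiment 1, and needing 1 list fewer can only raise it. The share in at least 1 was 73.9% and 50.9% under the first 2 settings (91.5% and 72.1% of all regions). Without 1 WT list it was 70.2% to 78.9% (89.5% to 91.8% of all), where leaving a list out can only lower it. Chosen after the data were seen, the 258 regions over 5 kb from a hindbrain K27M island gave 45.0% and 77.5%, and cutting only the WT lists to equal island numbers gave 11.4% and 40.8% (42.6% and 64.8% of all regions). The share with H3K4me3 in all 5 tumours was 29.4% when islands within 5 kb were merged, against 36.3% of all regions, and 23.1% to 26.4% without 1 tumour. The H3K27me3 difference between K27M and WT tumours was -9.87 to -0.753 percentage points without 1 tumour, -14.1 among females and 0.123 with equal island numbers, and that of H3K27ac was -0.669 to 1.17 without 1 tumour and -1.22 with equal peak numbers. Forebrain-only regions in tumour regions called by edgeR numbered 7, with 13 by DESeq2, 2 with sex as a covariate, 2 where at least 8 tumours had an island, and 3 to 10 without 1 tumour. The lowest number, 3, came without K27M tumour 1, K27M tumour 4 or WT tumour 7, and 4 without K27M tumour 3 or K27M tumour 6. Calls over all tumour regions changed too. Of 3067, 218 were higher and 143 lower in the main fit, 339 and 295 by DESeq2, and 184 and 111 with sex. Where at least 8 tumours had an island, 137 were higher and 8 lower of 7283. Without 1 tumour, 156 to 281 were higher and 75 to 170 lower. Fisher's test called 0 for both marks under every alternative run, but with so few tumours it could hardly call any region. The causes of these changes were not tested. No paired analysis was possible because the calls of the numbered neurosphere cultures chose the regions and the tumours share no replicate numbers. Islands give no depth outside them, which limits what a missing call shows.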
